A study of Mus musculus with 2 samples.

Results

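Fibro-adipogenic progenitors (FAPs) that carry the label Stem in the deposited cell table were described in mouse muscle after injury. The label was held by 128 of the 6953 barcodes in that table, 47 at day 2 and 81 at day 7, among 9725 barcodes called as cells. Members were taken by label alone, by matching barcodes between the table and the count matrices. Cells were kept from 750 genes and 1000 transcripts upwards if no more than 30% of transcripts were mitochondrial, which left 47 and 78 of them, and the 3 barcodes removed, all from day 7, had 640 to 689 genes. The other FAP labels, Pro-remodeling and Adipogenic, were held by 633 and 268 barcodes.

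The study set out to catalogue the cell populations of regenerating mouse muscle. Its 2 libraries came from tibialis anterior, a muscle of the shin, of C57Bl/6 mice given notexin, a venom phospholipase that destroys muscle fibres, and were made with droplet-based 10x v3 chemistry from dissociated whole muscle. There was 1 library of 1 mouse at day 2 and 1 library of 1 mouse at day 7 after injury. Without replicates no test was possible, and all intervals are at 95% and reflect the error of counting alone.

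The annotations of the mice disagreed. The sample labels give females of 7 months at both time points, whereas the cell table gives males, of 4 months at day 2 and of 7 months at day 7. In Stem-labelled FAPs, 4 Y-linked genes (Eif2s3y, Ddx3y, Kdm5d and Uty) had 188 counts at day 2, spread over 44 of 47 cells, and 86 counts at day 7, over 48 of 78 cells. Xist, which coats the silenced X chromosome of females, had 0 counts at both. Day, library, animal and possibly age cannot be told apart in any difference between the time points. 4 barcodes were in both filtered lists, and 0 of these were Stem-labelled.

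FAPs are Pdgfra-expressing mesenchymal cells between muscle fibres. After injury they multiply, secrete matrix and factors that act on muscle stem cells, and under other conditions they can form fat or scar. In many tissues, fibroblasts marked by Pi16 and Dpp4 sit in the adventitia, the connective sheath of vessels, and are regarded as a reservoir from which other fibroblasts can arise.

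Stem-labelled cells were a smaller share of FAPs at day 7 than at day 2 and a larger share of all cells. At day 2 they were 21.9% of FAP-labelled cells (interval 16.5 to 28.0; 47 of 215), and at day 7 they were 9.69% (7.73 to 11.9; 78 of 805), a difference of -12.2 percentage points (-18.6 to -6.38). The Adipogenic share was 14.0% at day 2 and 28.8% at day 7, and the Pro-remodeling share was 64.2% and 61.5%. Against all kept cells with a label, the Stem-labelled share was 1.48% (1.09 to 1.96; of 3178) at day 2 and 2.44% (1.93 to 3.04; of 3196) at day 7, a difference of 0.962 points (0.262 to 1.67). The 2 denominators thus gave opposite directions. Without the cells that held 3 or more counts of leukocyte or endothelial markers, the day 2 share of FAPs was 16.5% (9.53 to 25.7; 15 of 91) and the day 7 share was 9.56% (7.26 to 12.3; 54 of 565). The difference was -6.93 points (-16.4 to 0.544), an interval that includes 0. This limit took no account of depth, so the deeper cells of day 2 reach it more readily.

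**Figure D1:**
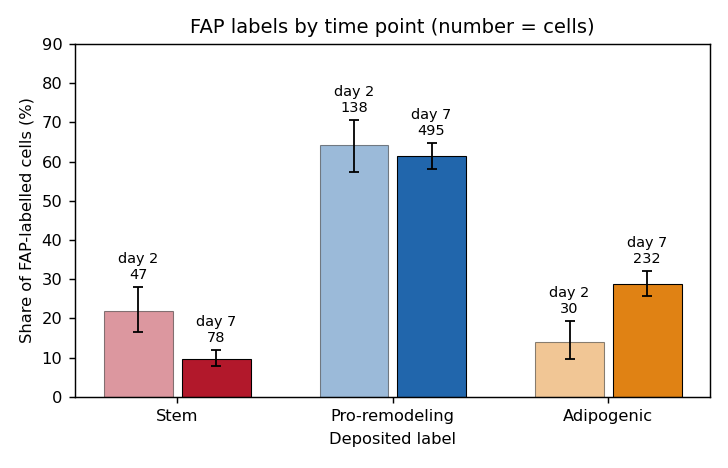
Share of each FAP label among FAP-labelled cells in percent (y axis), by deposited label (x axis) and time point (pale bars day 2, full bars day 7). Error bars are 95% Clopper-Pearson intervals and the numbers are cells; the Stem-labelled share was 21.9% at day 2 and 9.69% at day 7.

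Depth differed between the time points. Stem-labelled cells had a median of 23623 counts and 4868 genes at day 2 (4895 to 54145 counts) against 6717 counts and 2365 genes at day 7 (1471 to 31737 counts). Their summed counts were 1269645 and 613180. Levels are therefore given as CPM, the count of a gene per 1000000 counts of these sums, with exact Poisson intervals, and shares of cells with a count are given after each cell was thinned to 2000 counts. Ambient RNA, taken from barcodes with 1 to 100 counts, is given where it bears on a level.

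The 5 genes taken as markers of the label belong to signalling, matrix and oxidant pathways. Wnt2 (chr6:17988940-18030585, minus strand, GRCm38) encodes a secreted Wnt ligand, Duox1 (chr2:122315672-122347972, plus strand) an NADPH oxidase that makes hydrogen peroxide, Pcolce2 (chr9:95637601-95698096, plus strand) an enhancer of procollagen C-proteinase, Aldh1a3 (chr7:66390890-66427517, minus strand) a retinaldehyde dehydrogenase that makes retinoic acid, and Sema3c (chr5:17574281-17730268, plus strand) a secreted class 3 semaphorin. The labels came from the authors' clustering of these transcriptomes and from marker genes, and any gene may have had a part in them, so differences between labels describe what the label holds and were not tested.

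The markers set the label apart at both time points. Summed over the 5 markers, Stem-labelled FAPs had 712 CPM at day 2 and 1694 CPM at day 7. Pro-remodeling-labelled FAPs had 67.3 and 64.9 CPM, Adipogenic-labelled FAPs 180 and 171 CPM, and ambient barcodes 18.0 and 39.7 CPM. Each of the 5 genes was higher in Stem-labelled FAPs than in every other label with at least 20 cells, of which there were 18 labels in all at day 2 and 23 at day 7. The nearest label for Wnt2 and Aldh1a3 at day 2 was muscle stem cells (MuSCs), at 25.0 and 87.4 CPM, and in the other cases it was Adipogenic-labelled FAPs.

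Nearly every Stem-labelled cell had a count of at least 1 marker. Without thinning, 46 of 47 cells at day 2 had at least 1 of the markers and 8 had all 5. Of 78 at day 7, 77 had at least 1 and 4 had all 5, whereas no cell of the other FAP labels had 4 or more. In Pro-remodeling-labelled FAPs, 64 of 138 cells at day 2 and 320 of 495 at day 7 had none of the markers. In Adipogenic-labelled FAPs these numbers were 12 of 30 and 137 of 232, so many cells of both labels had a marker too. At these depths a cell without a count may still express the gene. At the common depth of 2000 counts, 66.0% of Stem-labelled cells at day 2 (50.7 to 79.1; 31 of 47) and 85.1% at day 7 (75.0 to 92.3; 63 of 74, with 4 shallower cells left out) had a marker count. At this depth, 121 of 138 Pro-remodeling-labelled cells at day 2 and 438 of 495 at day 7 had no marker count. Among Adipogenic-labelled cells these numbers were 22 of 28 and 166 of 216. Capillary endothelial cells had median depths of 6992 and 5444 counts. They had a marker count in 1.29% (2 of 155) and 0.671% (1 of 149), so the free-RNA background was low.

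The markers differed in how their levels compared between the time points. Wnt2 had nearly the same level at both, 62.2 CPM (49.3 to 77.5) at day 2 and 70.1 CPM (50.8 to 94.5) at day 7, with a log2 ratio of 0.17 (-0.40 to 0.73). Sema3c was 110 CPM at day 2 and 812 CPM at day 7, a log2 ratio of 2.88 (2.61 to 3.16), and Pcolce2 was 224 and 678 CPM, a log2 ratio of 1.60 (1.37 to 1.82). Aldh1a3 went the other way, with 291 CPM (262 to 323) at day 2 and 91.3 CPM (69.0 to 119) at day 7, for a log2 ratio of -1.67 (-2.11 to -1.27). Sema3c and Pcolce2 thus held most of the day 7 sum.

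Duox1 and the gene of its maturation factor had similar levels. Duox1 was 23.6 CPM (15.9 to 33.7) at day 2 and 42.4 CPM (27.7 to 62.1) at day 7. Duoxa1 (chr2:122302191-122313730, minus strand), whose product carries the oxidase out of the endoplasmic reticulum, was 22.8 CPM (15.3 to 32.8) and 37.5 CPM (23.8 to 56.3). The genes lie head to head, with 1942 bases between their starts, on opposite strands. Without thinning, 18 of 47 day 2 cells had a Duox1 count, 21 had a Duoxa1 count and 9 had both. At day 7 these numbers were 19, 21 and 6 of 78 cells. Whether the transcripts shared cells more often than their separate shares give was not tested. In Pro-remodeling-labelled FAPs, Duox1 was 0.285 CPM (1 count) at day 2 and 0.340 CPM (2 counts) at day 7.

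**Figure D2:**
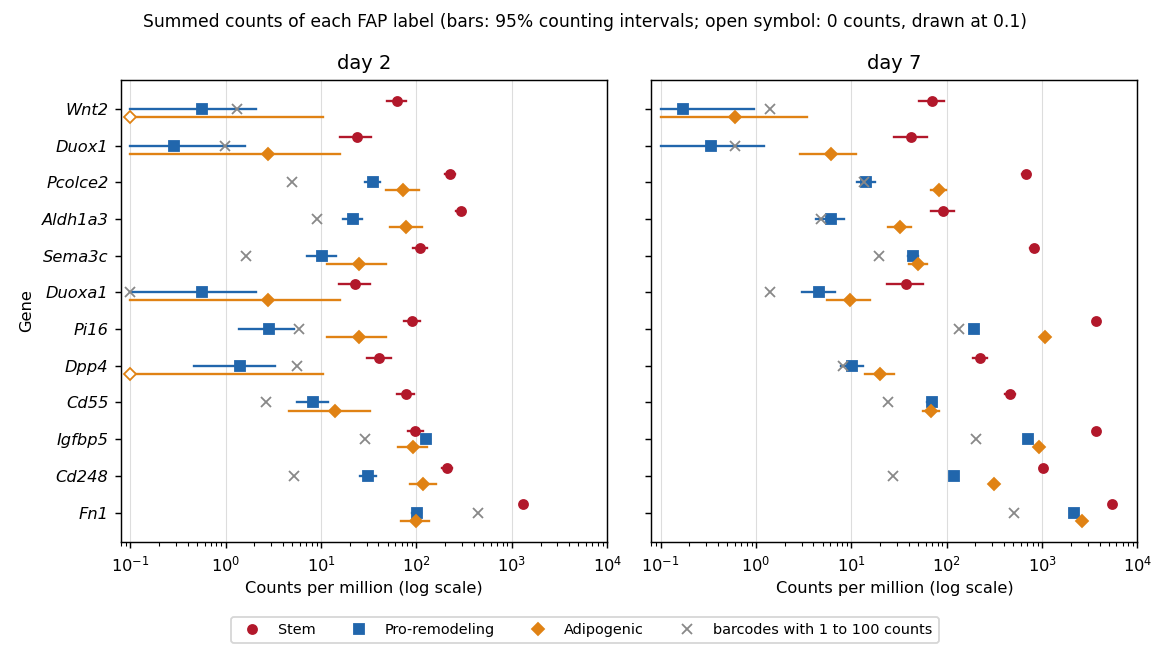
CPM on a log scale (x axis) of 12 genes (y axis) in the summed counts of each FAP label and in barcodes with 1 to 100 counts, at day 2 (left) and day 7 (right). Bars are 95% Poisson intervals and open symbols are 0 counts, drawn at 0.1. The Stem-labelled sums lie to the right for every gene except Igfbp5 at day 2, where they were 97.7 CPM against 126 CPM in Pro-remodeling-labelled FAPs.

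Genes of Pi16/Dpp4 adventitial fibroblasts were high in Stem-labelled FAPs, more so at day 7. The list held 20 genes, and a comparison counted a gene when the sums held at least 20 counts and a mean of at least 20 CPM. A gene under 20 CPM in 1 of the sums passes this filter only through the other, where it is high. Such members are counted apart below, and the counts are a description. The gene lists were chosen with earlier results of these data known, so background shares beside the counts give scale and test nothing. Against Pro-remodeling-labelled FAPs at day 7, 18 of the 20 were at least 2-fold higher (7 of these under 20 CPM in the Pro-remodeling-labelled sum) and 0 were at least 2-fold lower, with a median log2 ratio of 3.08. The background was 5.43% higher and 5.76% lower among 6041 genes, with a median log2 ratio of -0.01. Against Adipogenic-labelled FAPs at day 7, 17 of 20 were higher (6 under 20 CPM in the Adipogenic-labelled sum) and 0 lower, with a median of 2.39, where the background was 4.59% higher and 4.36% lower among 5965 genes and the median 0.05. At day 2, 14 members passed the filter, of which 11, 4 of them under 20 CPM there, were higher than in Pro-remodeling-labelled FAPs (background 2.97% higher and 3.76% lower of 5665 genes) and 9, 2 of them under 20 CPM there, were higher than in Adipogenic-labelled FAPs (5.33% higher and 5.78% lower of 5739 genes), with 0 lower in either case.

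The genes that name the list were higher at day 7. Pi16 (chr17:29317680-29330593, plus strand), which encodes a secreted peptidase inhibitor, was 89.8 CPM (74.1 to 108) in Stem-labelled FAPs at day 2 and 3650 CPM (3500 to 3804) at day 7, for a log2 ratio of 5.35 (5.07 to 5.63). At day 7 it was 195 CPM in Pro-remodeling-labelled FAPs, 1063 CPM in Adipogenic-labelled FAPs and at most 47.0 CPM in a label that was not FAP. At 2000 counts per cell, Pi16 was detected in 8 of 47 Stem-labelled cells at day 2 (17.0%; 7.65 to 30.8) and in 67 of 74 at day 7 (90.5%; 81.5 to 96.1), against 0 of 155 and 1 of 149 capillary endothelial cells. Before thinning, when day 2 cells were the deeper ones, the numbers were 28 of 47 and 75 of 78. Dpp4 (chr2:62330073-62412231, minus strand), a cell-surface peptidase, was 41.0 CPM (30.6 to 53.7) and 225 CPM (189 to 266), and at 2000 counts was found in 7 of 47 and 31 of 74 cells.

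The other members of the list mostly followed. Between day 2 and day 7, 15 of 20 were at least 2-fold higher and 1 at least 2-fold lower in Stem-labelled FAPs, with a median log2 ratio of 2.37, where the background was 17.0% higher and 21.0% lower. Of the 15, 4 were under 20 CPM at day 2 and passed the filter through day 7 alone, and 11 were at 20 CPM or more at both times. Igfbp5 and Igfbp6, binding proteins of insulin-like growth factors, were 97.7 and 414 CPM at day 2 and 3666 and 2844 CPM at day 7. Cd55, an inhibitor of complement on the cell surface, was 77.2 and 460 CPM, and Cd248, a surface glycoprotein of mesenchymal cells, was 211 and 1024 CPM. Stmn4 had 0 of 1269645 counts at day 2 and 40 counts at day 7, and was therefore at least 27.6-fold higher, taking 3 counts in the day 2 sum as the floor. Anxa3, a member of the annexin family, was 594 CPM (552 to 638) and 646 CPM (584 to 713), and Procr, the protein C receptor, was 320 CPM (289 to 352) and 250 CPM (212 to 292). These 2 genes were thus within 2-fold of their day 7 level at day 2. The member at least 2-fold lower at day 7 was Tnfaip6, which modifies hyaluronan, at 988 and 378 CPM.

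Cells of the label varied widely in these genes. Of 2000 counts per cell, the 20 genes took a median of 0.45% in Stem-labelled cells at day 2 (0.15% to 1.4%) and of 1.6% at day 7 (0.3% to 5.6%). Pro-remodeling-labelled and Adipogenic-labelled cells both had medians of 0.15% at day 2 and 0.45% at day 7. The lowest Stem-labelled cells at day 7 lay within the range of the other labels, and the highest lay above it. Of the 5 markers the median was 1 count at day 2 (highest 9) and 3 counts at day 7 (highest 12), with 16 of 47 and 11 of 74 cells at 0.

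**Figure D3:**
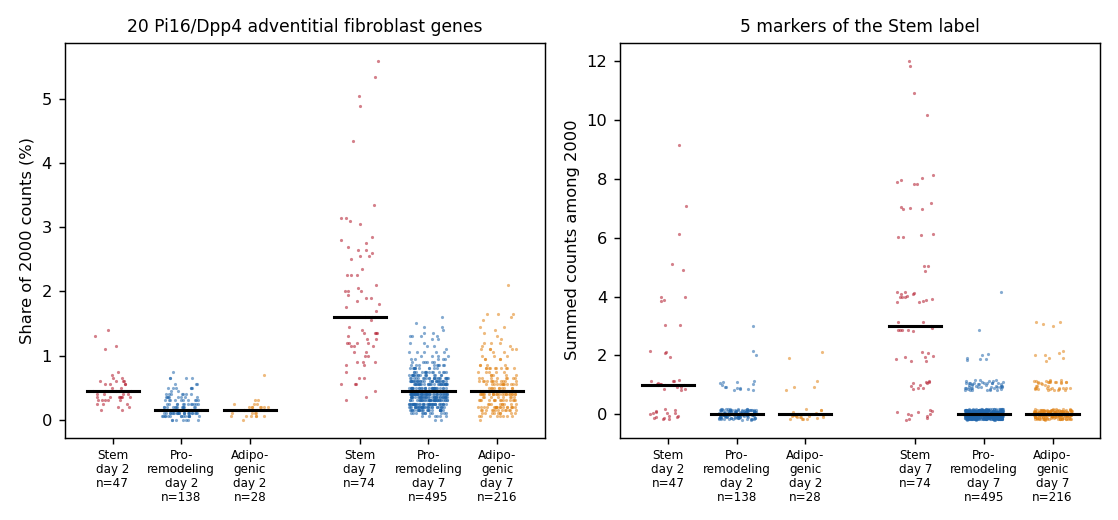
Each point is 1 cell thinned to 2000 counts, by label and time point (x axis); bars are medians. Left, share of counts in percent held by the 20 Pi16/Dpp4 genes, with Stem-labelled medians of 0.45% at day 2 and 1.6% at day 7; right, summed counts of the 5 markers of the label, with medians of 1 and 3 (points are spread a little for display).

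Across all genes, the day 7 and day 2 sums of Stem-labelled FAPs were far apart. Of 6018 genes past the filter, 1023 were at least 2-fold higher at day 7, which is 17.0%, and 1261 were at least 2-fold lower, which is 21.0%. Of these, 475 of the higher genes were under 20 CPM at day 2 and 480 of the lower genes were under 20 CPM at day 7. The median log2 ratio was -0.12 (quartiles -0.86 and 0.68), and list counts and medians between the days are to be read relative to these values. Genes with under 3 counts in a sum were set to 3 counts in list medians, which places them at their bound. The numbers of genes past 2-fold depend on the filter, and with a minimum of 5 summed counts and none on CPM, 2576 genes were at least 2-fold higher and 1812 at least 2-fold lower. The higher genes then made up 58.7% of those past 2-fold, in place of 44.8%.

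**Figure D4:**
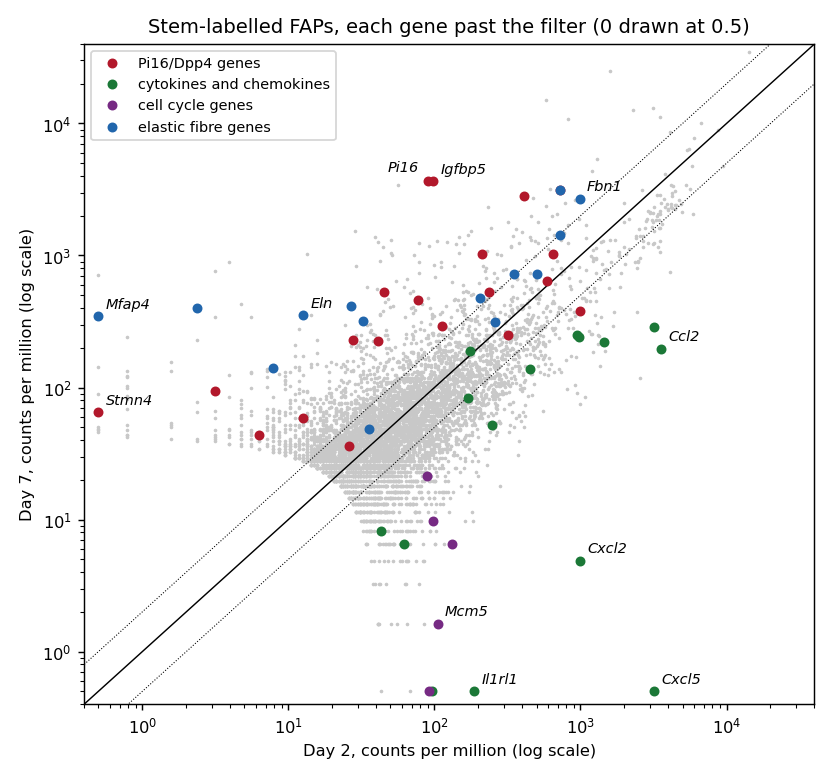
CPM in Stem-labelled FAPs at day 2 (x axis) and day 7 (y axis), both on log scales, for each of 6018 genes past the filter; genes at 0 are drawn at 0.5. The full line is equality and the dotted lines are 2-fold. Pi16 and Igfbp5 lie far above the lines, and Cxcl5, Cxcl2 and Mcm5 far below them.

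Cytokine and chemokine transcripts were high at day 2. Of the 18 genes of this list, 15 passed the filter, 14 were at least 2-fold lower at day 7 and 0 at least 2-fold higher, with a median log2 ratio of -2.72 against -0.12 over all genes. Of the 14, 6 were under 20 CPM at day 7 and passed the filter through day 2 alone. Over all genes, 21.0% were lower and 17.0% higher. Summed over the list, Stem-labelled FAPs had 15805 CPM at day 2 and 1678 CPM at day 7, and ambient barcodes 5372 and 763 CPM. Cxcl5, a neutrophil-attracting chemokine, was 3189 CPM (3092 to 3289) at day 2 and had 0 counts at day 7, at least 652-fold lower. It was detected in 35 of 47 cells at day 2 and 0 of 74 at day 7 at 2000 counts, the latter allowing a share of cells with a count of up to 4.05% at this depth (3 of 74 cells), while capillary endothelial cells gave 3 of 155 and 0 of 149. Cxcl1 was 3193 and 287 CPM, and Cxcl2 was 998 CPM and 4.89 CPM (3 counts), a log2 ratio of -7.67 (-9.95 to -6.12). Ccl2 and Ccl7, which attract monocytes, were 3567 and 1455 CPM at day 2 and 197 and 220 CPM at day 7.

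Some members of the list were less tied to day 2. Il33, an alarmin released from damaged stromal cells, was 176 CPM (154 to 201) and 188 CPM (155 to 225), the member that was not at least 2-fold lower. Il1rl1, the receptor for that alarmin, was 187 CPM at day 2 and had 0 counts at day 7, at least 38.2-fold lower. Ptgs2, the inducible cyclooxygenase of prostaglandin synthesis, and Csf1, the macrophage growth factor, were 942 and 984 CPM at day 2 and 251 and 241 CPM at day 7. Timp1, an inhibitor of matrix proteases outside this list, was 2539 and 117 CPM.

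Levels of these genes differed among FAP labels within day 2. Cxcl5 was 3189 CPM in Stem-labelled, 7720 CPM in Pro-remodeling-labelled and 1584 CPM in Adipogenic-labelled FAPs, and the intervals did not overlap. Against Pro-remodeling-labelled FAPs, 2 of 17 list members were at least 2-fold higher and 5 at least 2-fold lower, where 2.97% and 3.76% of all genes were. Against Adipogenic-labelled FAPs the balance was the other way, with 5 of 16 higher (1 of these under 20 CPM in the Adipogenic-labelled sum) and 2 lower and a median log2 ratio of 0.57, where 5.33% and 5.78% of all genes were. In that comparison the leukocyte markers summed to 141 CPM in Stem-labelled and 713 CPM in Adipogenic-labelled FAPs, and 1 of the 2 lower genes, Il6, had a log2 ratio of 0.000626 in place of -1.60 without the cells that held leukocyte or endothelial counts. Saa3, an acute phase protein, was 26.0 CPM against 635 CPM in Pro-remodeling-labelled FAPs, and Lif, a cytokine of the interleukin 6 family, was 43.3 CPM against 237 CPM there. Il1rl1 was higher in Stem-labelled than in Pro-remodeling-labelled FAPs, at 187 CPM against 47.3 CPM, as was Ccl8, at 170 CPM against 37.9 CPM. At day 7 the list summed to 1678 CPM (1577 to 1784) in Stem-labelled FAPs, between 1336 CPM in Pro-remodeling-labelled and 2061 CPM in Adipogenic-labelled FAPs. There, 3 of 9 members were at least 2-fold higher and 0 lower than in Pro-remodeling-labelled FAPs, with a median log2 ratio of 0.44 (background 5.43% higher and 5.76% lower). Against Adipogenic-labelled FAPs 1 of 10 was higher and 2 were lower (1 of these under 20 CPM in the Stem-labelled sum), with a median of -0.58 (4.59% and 4.36%). The higher ones included Ptgs2, which was 251 CPM in Stem-labelled FAPs against 49.1 CPM in Pro-remodeling-labelled and 79.6 CPM in Adipogenic-labelled FAPs.

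Promoters of 3 neighbouring chemokine genes are shown because Cxcl2 was among the 6 genes with the lowest day 7 to day 2 ratios and its neighbours were low at day 7 as well. The third, Cxcl3, was 96.9 CPM at day 2 and had 0 counts at day 7, at least 19.8-fold lower. Cxcl1 and Cxcl2 start 12654 bases apart and Cxcl1 and Cxcl3 start 105144 bases apart, all on the plus strand. The windows are 120 bases that end just before the annotated start in the RefSeq promoter table (GRCm38.p6), at chr5:90891125-90891244 for Cxcl1, chr5:90903779-90903898 for Cxcl2 and chr5:90785981-90786100 for Cxcl3. Capitals mark matches to the NF-kappaB consensus on either strand. The sequences read 5′ to 3′:
Cxcl1: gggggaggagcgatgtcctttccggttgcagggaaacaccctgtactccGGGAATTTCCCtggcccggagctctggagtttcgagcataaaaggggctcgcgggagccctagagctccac
Cxcl2: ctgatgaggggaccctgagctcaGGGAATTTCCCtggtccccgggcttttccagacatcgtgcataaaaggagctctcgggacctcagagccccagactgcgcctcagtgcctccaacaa
Cxcl3: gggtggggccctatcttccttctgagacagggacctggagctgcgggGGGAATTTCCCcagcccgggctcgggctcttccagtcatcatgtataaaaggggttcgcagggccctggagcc

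In each of the 3 promoters a match and an overlapping match on the opposite strand were found, which began at -71 in Cxcl1, at -97 in Cxcl2 and at -73 in Cxcl3, counted from the start. The 300-base windows of the table, 250 bases before to 50 after each start, held this motif in 1480 of 32851 promoters (4.51%). Of the 18 list members, 13 had an entry and 6 held a match, namely Csf1, Cxcl1, Cxcl2, Cxcl3, Il6 and Ptx3. These are matches of letters, and binding was not measured.

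Cell cycle genes also had a higher summed level at day 2. Summed over the 12 genes of the list, with no filter, Stem-labelled FAPs had 544 CPM (504 to 586) at day 2 and 44.0 CPM (29.0 to 64.1) at day 7, and ambient barcodes had 115 and 197 CPM. Of the 12, 5 passed the filter, namely Mcm2, Mcm3, Mcm5, Mcm6 and Pcna. The 4 Mcm genes were under 20 CPM at day 7 and passed through day 2 alone, so that nothing is read from how many of the 5 were lower. Pcna, at 20 CPM or more at both times, was 89.0 and 21.2 CPM, a log2 ratio of -2.07. The Mcm genes encode subunits of the replicative helicase and Pcna the sliding clamp. Mcm3 was 132 CPM (113 to 154) at day 2 and 6.52 CPM (1.78 to 16.7) at day 7, Mcm5 106 CPM (88.4 to 125) and 1.63 CPM (1 count; 0.0413 to 9.09), and Mcm2 91.4 CPM and 0 counts, at least 18.7-fold lower. In Pro-remodeling-labelled FAPs at day 2 the levels were 49.3 CPM for Mcm3, 40.8 CPM for Mcm5 and 38.8 CPM for Mcm2, and 4 of the 5 genes were at least 2-fold higher in Stem-labelled FAPs (background 2.97%). Against Adipogenic-labelled FAPs at day 2, 3 of the 5 were at least 2-fold higher and 2 lay within 2-fold (background 5.33% higher).

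Genes of mitosis gave few counts at either time. At 2000 counts, 24 of 47 Stem-labelled cells at day 2 (51.1%; 36.1 to 65.9) and 5 of 74 at day 7 (6.76%; 2.23 to 15.1) had a count of the 5 replication genes. In capillary endothelial cells, which can themselves divide and are no negative control, these shares were 43.2% and 23.5%. The 7 mitotic genes, Mki67, Top2a, Cdk1, Ccnb1, Ccna2, Birc5 and Ube2c, were seen in 5 of 47 cells at day 2 (10.6%; 3.55 to 23.1) and in 0 of 74 at day 7, which allows a share of cells with a count of up to 4.05% at this depth (3 of 74 cells) and does not limit the share of cells that express them.

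Promoters of Mcm6 and Mcm5 are shown as 2 of the 4 members of this list, with Cdk1 and Mcm3, that held a match to TTTNNCGC, a form of the E2F site. The windows come from the same RefSeq table (GRCm38.p6), at chr1:128359706-128359825 on the minus strand for Mcm6 (-120 to -1 from the start) and chr8:75109339-75109458 on the plus strand for Mcm5 (-170 to -51), and capitals mark matches on either strand, 5′ to 3′:
Mcm6: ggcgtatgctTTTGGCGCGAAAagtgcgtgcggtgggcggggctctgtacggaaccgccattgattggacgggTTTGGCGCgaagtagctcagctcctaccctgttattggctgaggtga
Mcm5: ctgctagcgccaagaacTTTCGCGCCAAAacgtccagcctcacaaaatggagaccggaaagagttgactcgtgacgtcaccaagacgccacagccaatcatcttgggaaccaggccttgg

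In Mcm6 the matches lay at -110 to -103, at -106 to -99 on the opposite strand, overlapping the first, and at -47 to -40. In Mcm5 they lay at -153 to -146 and at -149 to -142 on the opposite strand, again overlapping. The motif was in 1698 of 32851 promoters (5.17%), and 11 of the 12 genes had an entry.

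Most elastic fibre and microfibril genes past the filter were higher at day 7. Of 16 genes, 14 passed. Among them, 10 were at least 2-fold higher (4 of these under 20 CPM at day 2) and 0 at least 2-fold lower. The median log2 ratio was 1.79, where 17.0% of all genes were higher and 21.0% lower. Eln, which encodes elastin, was 12.6 CPM (7.20 to 20.5) at day 2 and 354 CPM (308 to 404) at day 7. Mfap4, a glycoprotein of microfibrils, had 0 counts and then 347 CPM, at least 147-fold higher, and Mfap2 was 2.36 CPM (3 counts) and 398 CPM, a log2 ratio of 7.40 (5.83 to 9.68). Fbn1, the microfibril protein fibrillin 1, was already at 989 CPM at day 2 and was 2693 CPM at day 7. Against each of the other labels at day 7, 4 of 14 were at least 2-fold higher, 1 was lower and 9 lay between, with medians of 0.25 (Pro-remodeling; background 5.43% higher and 5.76% lower) and 0.16 (Adipogenic; 4.59% and 4.36%). At day 2 more members were lower than higher, with 2 of 12 higher and 4 lower against Pro-remodeling-labelled FAPs and 3 of 13 higher and 5 lower against Adipogenic-labelled FAPs, and medians of 0.12 and -0.19 (background 2.97% higher and 3.76% lower, and 5.33% and 5.78%). Of the lower ones, 2 and 3 were under 20 CPM in the Stem-labelled sum. The fibrillin gene was among those higher than in the other labels at day 7, which had 822 CPM (Pro-remodeling) and 644 CPM (Adipogenic). Efemp1, a fibulin, was 722 CPM there against 86.2 and 265 CPM, and Emilin2, a glycoprotein of elastic fibres, was 476 CPM against 88.8 and 85.0 CPM.

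Fn1 set Stem-labelled FAPs apart at day 2. Fibronectin transcripts were 1305 CPM (1243 to 1369) in Stem-labelled FAPs at day 2, against 100 CPM (90.1 to 111) in Pro-remodeling-labelled and 98.3 CPM (68.5 to 137) in Adipogenic-labelled FAPs. Ambient barcodes had 443 CPM, above the other labels and below the Stem-labelled sum. At day 7 the levels were 5406, 2170 and 2607 CPM. At 2000 counts Fn1 was found in 38 of 47 Stem-labelled cells at day 2 and in 15 of 138 Pro-remodeling-labelled cells, against 9 of 155 capillary endothelial cells.

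Collagen processing genes were in part higher at day 7. Of 13 procollagen processing genes, 11 passed the filter, 6 were at least 2-fold higher and 5 lay within 2-fold. The median log2 ratio was 1.13, where 17.0% of all genes were higher and 21.0% lower. Col1a1 and Col3a1, the chains of the main fibrillar collagens, were 581 and 1589 CPM at day 2 and 14929 and 25133 CPM at day 7. Adamts2, which trims the N-terminal propeptide, was 101 and 687 CPM, and Bmp1, which trims the C-terminal propeptide, was 139 and 465 CPM. Pcolce, the relative of the marker Pcolce2, was 398 and 1518 CPM, and at day 7 its level in Stem-labelled FAPs was near that in Pro-remodeling-labelled FAPs, with a log2 ratio of -0.08 (-0.18 to 0.01), where Pcolce2 had a log2 ratio of 5.57 (5.23 to 5.93).

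Most hyaluronan genes past the filter were higher in Stem-labelled FAPs than in the other labels at day 7. Of 14 genes for hyaluronan synthesis and turnover, 10 passed. Within day 7, 7 of 10 were at least 2-fold higher than in Pro-remodeling-labelled FAPs (background 5.43%) and 6 of 10 than in Adipogenic-labelled FAPs (background 4.59%), with medians of 1.45 and 1.13, and each of these was at 20 CPM or more in both sums. Within day 2, 0 of 10 were at least 2-fold higher or lower than in Pro-remodeling-labelled FAPs, with a median of 0.67, and 1 of 11 was higher and 0 lower than in Adipogenic-labelled FAPs, with a median of 0.52. Over all genes these medians were 0.08 and 0.05. The background was 2.97% higher and 3.76% lower against Pro-remodeling, and 5.33% and 5.78% against Adipogenic. Between the days, 7 of 10 lay within 2-fold, 3 were lower at day 7 and 0 higher, with a median log2 ratio of -0.62 and a background of 21.0% lower. Ugdh, which makes the UDP-glucuronate from which hyaluronan is built, was 522 CPM at day 2 and 274 CPM (234 to 319) at day 7, where the other labels had 50.6 and 92.9 CPM. Has1, a hyaluronan synthase, was 653 CPM at day 2 and 274 CPM (234 to 319) at day 7, against 101 and 135 CPM in the others. Has2 was 112 and 79.9 CPM, with 31.4 and 34.0 CPM in the other labels at day 7.

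**Figure D5:**
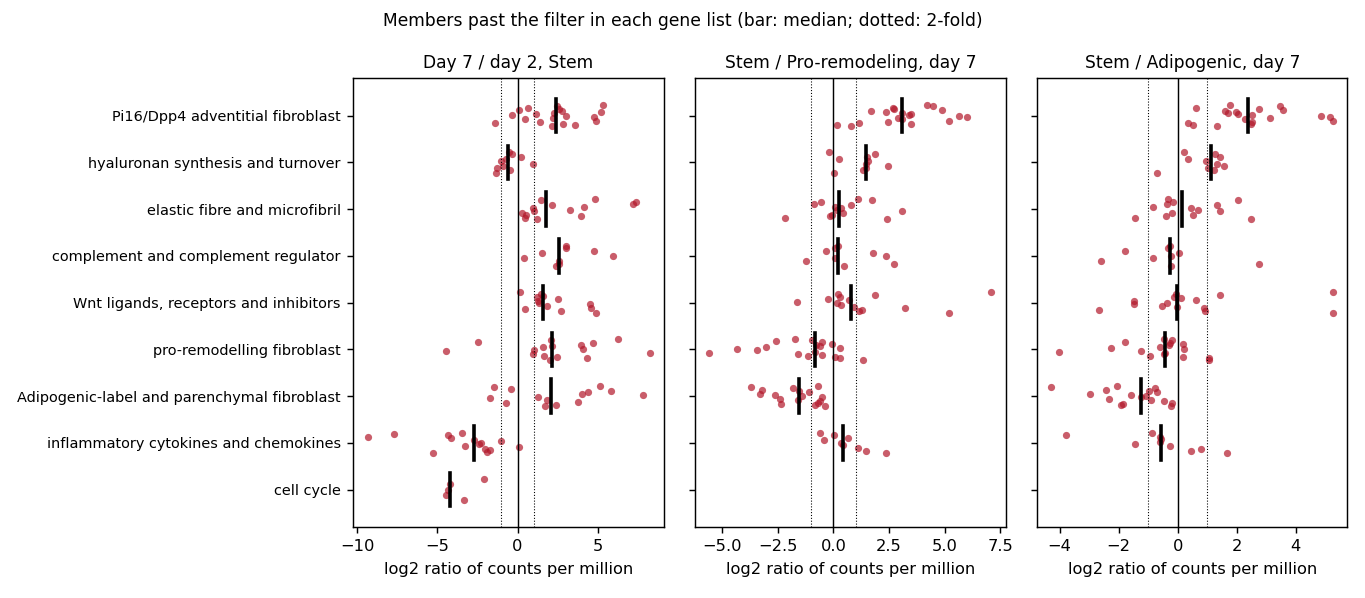
Log2 ratio of CPM (x axis) for each list member past the filter (points), by list (y axis), for day 7 over day 2 in Stem-labelled FAPs (left), Stem over Pro-remodeling at day 7 (middle) and Stem over Adipogenic at day 7 (right). Bars are list medians and dotted lines are 2-fold. The Pi16/Dpp4 list has medians of 2.37, 3.08 and 2.39; the hyaluronan list is at -0.62 on the left and at 1.45 and 1.13 in the other panels.

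Complement transcripts were higher at day 7 in most members past the filter. Of 11 genes, 9 passed and 8 were at least 2-fold higher, 3 of them under 20 CPM at day 2. The median log2 ratio was 2.60, where 17.0% of all genes were higher and 21.0% lower. C3, the central component, was 916 and 2650 CPM, Serping1, the inhibitor of the first component, 616 and 3193 CPM, and C4b 5.51 CPM (2.22 to 11.4) and 341 CPM (296 to 390). At day 7, C3 was 2573 CPM in Adipogenic-labelled FAPs, close to the Stem-labelled level, with a log2 ratio of 0.04 (-0.04 to 0.13), and 761 CPM in Pro-remodeling-labelled FAPs. Cfb, a protease of the alternative pathway, was 65.4 CPM (52.1 to 81.0) and 86.4 CPM (64.7 to 113), and these intervals overlapped.

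Wnt pathway genes past the filter were mostly higher at day 7. Of 27 genes, 13 passed. Among them, 11 were at least 2-fold higher (6 of these under 20 CPM at day 2) and 0 at least 2-fold lower. The median log2 ratio was 1.58, where 17.0% of all genes were higher and 21.0% lower. Sfrp4 and Sfrp1, secreted inhibitors that bind Wnt ligands, were 11.8 and 5.51 CPM at day 2 and 279 and 129 CPM at day 7. Dact2, an intracellular regulator of Wnt signalling, was 3.15 CPM (4 counts) and 94.6 CPM, a log2 ratio of 4.91 (3.47 to 6.83), and at day 7 it was 2.55 and 2.43 CPM in the other labels. Dkk2, which blocks Wnt co-receptors, was 62.2 CPM (49.3 to 77.5) and 84.8 CPM (63.3 to 111), so that its intervals overlapped between the days, as those of Wnt2 did. Sfrp4 did not set the label apart from Adipogenic-labelled FAPs at day 7, at 279 against 286 CPM.

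Retinoic acid genes differed in direction. Of 18 genes, 11 passed the filter. At day 7, 4 were at least 2-fold higher (2 of these under 20 CPM at day 2). Another 5 were at least 2-fold lower (2 of these under 20 CPM at day 7). The median log2 ratio was 0.35, where 17.0% of all genes were higher and 21.0% lower. The lower ones included the synthetic enzymes Aldh1a3, given above, Aldh1a2 (265 and 103 CPM) and Rdh10 (129 and 35.9 CPM), and Cyp26b1, which degrades retinoic acid (70.9 CPM and 8.15 CPM). Among the higher ones, Rarg, a retinoic acid receptor, was 38.6 and 89.7 CPM. Aldh1a2 did not follow Aldh1a3 across labels. It was 290 CPM in Pro-remodeling-labelled FAPs at day 2, and the log2 ratio of Stem-labelled to these was -0.13 (-0.31 to 0.05), against 3.77 (3.41 to 4.15) for Aldh1a3.

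Few semaphorins were measured well enough to compare. Of 14 class 3 semaphorins and receptors, 4 passed the filter and 3 were at least 2-fold higher at day 7, 1 of them under 20 CPM at day 2, with a median log2 ratio of 2.22. Sema3b was 6.30 CPM (2.72 to 12.4) and 45.7 CPM (30.3 to 66.0). Nrp1, a receptor for these ligands, was 60.6 and 183 CPM, and at day 7 it was lower than in Pro-remodeling-labelled FAPs, which had 343 CPM. Of 15 genes for NADPH oxidases and peroxide handling, 12 passed the filter, with 2 at least 2-fold higher (1 under 20 CPM at day 2), 2 at least 2-fold lower and a median log2 ratio of -0.09, near the background of 17.0% higher, 21.0% lower and -0.12. Nox4, an oxidase that makes hydrogen peroxide without a maturation factor of the Duox kind, was 10.2 and 76.6 CPM, and mitochondrial Sod2 was 390 and 55.4 CPM.

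Secreted factors known to act on muscle cells were mixed. Of 14 genes, 9 passed the filter. At day 7, 4 were at least 2-fold higher (2 of these under 20 CPM at day 2). Another 2 were at least 2-fold lower (1 of these under 20 CPM at day 7). The median log2 ratio was 0.34, where 17.0% of all genes were higher and 21.0% lower. Fstl1, a follistatin-like glycoprotein, was 1198 and 4359 CPM, and at day 7 it was 1928 CPM in Pro-remodeling-labelled and 2298 CPM in Adipogenic-labelled FAPs. Nov, a matricellular protein of the CCN family, was 17.3 CPM (10.9 to 26.2) and 421 CPM (371 to 475), against 65.2 and 46.8 CPM in the other labels at day 7. Igf1 was 42.5 and 362 CPM, and here Stem-labelled FAPs had less than the others at day 7, which had 741 and 798 CPM. Igf2 was also lower than in the others, at 29.4 CPM (17.4 to 46.4) against 364 and 167 CPM.

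The remaining lists describe FAP identity. Of 12 genes common to FAPs, 12 passed the filter and 8 were at least 2-fold higher at day 7. The median log2 ratio was 1.56, where 17.0% of all genes were higher and 21.0% lower. Dcn, the proteoglycan decorin, was 3151 and 13143 CPM, and Gsn, the actin regulator gelsolin, was 3503 and 11181 CPM. Cd34 was 606 and 1582 CPM, and at day 7 it was 528 CPM in Pro-remodeling-labelled and 743 CPM in Adipogenic-labelled FAPs. Pdgfra itself was 458 CPM (422 to 497) and 333 CPM (289 to 382). Of 10 immediate early genes, 5 were at least 2-fold higher at day 7, with a median log2 ratio of 0.88 and the same background. Transcripts of these genes are also known to be induced by tissue dissociation. Egr1 was 343 and 1409 CPM and Fos was 817 and 1701 CPM.

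In the list for the Adipogenic label and parenchymal fibroblasts, most genes past the filter were lower in Stem-labelled than other FAPs, at both times. Summed, the list did not set the other labels apart, at 11610 CPM (Pro-remodeling) and 11584 CPM (Adipogenic) at day 2. At day 7 these sums were 24115 and 24474 CPM. Of its 21 genes, 11 of 17 past the filter were at least 2-fold lower than in Pro-remodeling-labelled FAPs at day 7. Against Adipogenic-labelled FAPs, 10 of 17 were lower, with 0 higher in either case and medians of -1.55 and -1.25. The background was 5.76% and 4.36% lower. At day 2 these counts were 9 of 11 and 12 of 15 lower, with 1 higher in each, against a background of 3.76% and 5.78% lower. Of the lower ones, 2 of 11 and 2 of 10 at day 7, and 2 of 9 and 6 of 12 at day 2, were under 20 CPM in the Stem-labelled sum. The higher gene was Ccl11, a chemokine for eosinophils, at 617 CPM against 188 and 78.6 CPM.

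Individual genes of this kind lay below the other labels by differing amounts. Cxcl14, a chemokine, was 609 CPM in Stem-labelled FAPs at day 2 against 7362 and 6509 CPM, and 225 CPM at day 7 against 2900 and 4399 CPM. Mgp, an inhibitor of calcification, was 3.94 CPM (5 counts) at day 2 against 369 and 963 CPM, and 900 CPM at day 7 against 8988 and 7079 CPM. The Mgp level thus had a log2 ratio of 7.84 (6.61 to 9.47) between the days while staying below that of the other labels. Smoc2, a matrix protein that binds calcium, was 42.5 CPM against 921 and 480 CPM at day 2, and 910 CPM against 2673 and 1767 CPM at day 7. Gdf10, a ligand of the TGF-beta family, was 5.51 CPM (2.22 to 11.4) against 345 CPM in Adipogenic-labelled FAPs at day 2, and Mmp3, a stromelysin outside the list, was 37.0 CPM against 769 CPM there.

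Genes of fibroblasts that remodel matrix were mostly higher at day 7 than at day 2, and 8 of 19 were lower than in Pro-remodeling-labelled FAPs at day 7. Tenocyte markers moved in the same directions, at 2.36 CPM in Stem-labelled FAPs at day 2 and 246 CPM at day 7, against 1316 CPM in Pro-remodeling-labelled FAPs at day 7, where 332 of 495 cells had 3 or more of their counts against 13 of 78 Stem-labelled cells. Their part in these differences was not tested. Of 20 genes, 16 passed the filter between the days. At day 7, 13 were at least 2-fold higher (3 of these under 20 CPM at day 2). Another 2 were at least 2-fold lower (1 of these under 20 CPM at day 7). The median log2 ratio was 2.13, where 17.0% of all genes were higher and 21.0% lower. Against Pro-remodeling-labelled FAPs at day 7, 1 of 19 was at least 2-fold higher, which was Fn1, and 8 were at least 2-fold lower (4 of these under 20 CPM in the Stem-labelled sum), with a median of -0.82 and a background of 5.43% higher and 5.76% lower. At day 2 the same comparison gave 2 of 14 higher and 2 lower, 1 of each passing the filter through 1 sum alone, with a median of -0.08 and a background of 2.97% higher and 3.76% lower. Postn, the matricellular protein periostin, was 1034 CPM at day 7 against 3403 CPM, and Cilp, a cartilage matrix protein, was 711 CPM against 2135 CPM, after 0 counts in Stem-labelled FAPs at day 2 (at least 301-fold higher). Ptn, the growth factor pleiotrophin, was 3.26 CPM (2 counts) against 234 CPM, a log2 ratio of -6.16 (-9.21 to -4.31). Tnc, the matrix protein tenascin C, had 0 counts against 98.5 CPM, at least 20.1-fold lower, and at day 2 was 8.66 CPM against 346 CPM. Against Adipogenic-labelled FAPs at day 7, 2 of 17 list members were higher and 4 lower (background 4.59% and 4.36%), with a median of -0.44. At day 2, 4 of 14 were higher and 1 lower (5.33% and 5.78%), with a median of -0.16. Under 20 CPM in 1 of the sums were 2 of the 4 lower at day 7. At day 2 this held for 2 of the 4 higher and for the 1 lower.

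Ranking by ratio added genes outside the lists. The 6 highest between the days were Cilp, Cdkn1c, Mgp, Mfap2, Mfap4 and Hmcn2, of which Cdkn1c, an inhibitor of cyclin-dependent kinases, was 3.15 CPM (4 counts) and 765 CPM, and Hmcn2, a matrix protein of the hemicentin family, 3.15 CPM (4 counts) and 341 CPM. Cdkn1c was high in the other labels as well, at 1260 CPM in Pro-remodeling-labelled and 596 CPM in Adipogenic-labelled FAPs at day 7. The 6 lowest were Cxcl5, Cxcl2, Il1rl1, Timp1, Mcm5 and Mcm3, given above.

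At day 7 the highest ratios to Pro-remodeling-labelled FAPs were those of Efhd1, Pcolce2, Mustn1, Anxa3, Cadm3 and Dpp4. Efhd1, a calcium-binding protein of mitochondria and a member of the Pi16/Dpp4 list, was 228 CPM (192 to 269) against 4.58 and 7.90 CPM in the other labels and led the ranking against Adipogenic-labelled FAPs too, ahead of Sema3c, Anxa3, Dpp4, Nov and Pcsk6. Pcsk6, a proprotein convertase, was 669 CPM against 81.2 and 74.7 CPM, and Cadm3, an adhesion molecule, 250 CPM against 10.0 and 79.6 CPM. The low end against Pro-remodeling-labelled FAPs included Ptn, Spon1, Gfra1, Ly6h and Cxcl14, and against Adipogenic-labelled FAPs it included Cxcl14, Mmp3, Gfra1, Cxcl9 and Clec11a. Gfra1, a receptor for glial cell line-derived neurotrophic factor, was 6.52 CPM (1.78 to 16.7) against 111 and 67.4 CPM.

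At day 2 the highest ratios to Pro-remodeling-labelled FAPs were those of Sbsn, Pi16, Tmem26, Aldh1a3, Fn1 and Slc4a4. Sbsn, which encodes suprabasin, was 173 CPM (151 to 198) against 3.99 and 8.42 CPM, and it was as high at day 7, at 158 CPM (128 to 193). Tmem26, a membrane protein, was 86.6 CPM (71.2 to 104) against 3.71 and 2.81 CPM and was 31.0 CPM (18.7 to 48.4) at day 7, and Slc4a4, a bicarbonate transporter, was 184 CPM (161 to 209) against 15.4 and 22.5 CPM and was 57.1 CPM (39.8 to 79.4) at day 7. Sbsn thus kept its level between the days within counting error, as Wnt2 did, and the other 2 did not. Against Adipogenic-labelled FAPs the highest were Sbsn, Fn1, Galnt16, Tmem26, Cxcl3 and Slc4a4. The lowest against Pro-remodeling-labelled FAPs were Mgp, Tnc, Dio3, Fbln7, Ccbe1 and Smoc2, and against Adipogenic-labelled FAPs Mgp, Gdf10, S100a9, Mmp3, Smoc2 and Cxcl14. The S100a9 entry rests on 1 cell, since 314 of 322 neutrophil marker counts in day 2 Adipogenic-labelled FAPs (97.5%) were in 1 of 30 cells.

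Transcripts of other cell types were present in Stem-labelled cells. Without thinning, at least 3 counts of 8 leukocyte markers were found in 24 of 47 cells at day 2 (highest 60). At day 7 they were found in 18 of 78 (highest 36). The deeper cells of day 2 reach 3 counts more readily, and the summed level was lower there. Summed levels were 141 and 307 CPM against 4812 and 7697 CPM in ambient barcodes. At least 3 counts of 7 endothelial markers were found in 5 of 47 cells and 0 of 78, and of 6 tenocyte markers in 0 of 47 and 13 of 78. The 9 myofibre genes summed to 11.0 CPM at day 2 and 458 CPM at day 7, against 710 and 25583 CPM in ambient barcodes, and each of the 7 members past the filter was under 20 CPM at day 2. The mesothelial markers gave 0 cells with 3 or more counts at both times. The part of these transcripts in the differences between days was not tested.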

How the data were processed

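Single-cell RNA sequencing of 2 libraries was analysed. The authors deposited raw UMI counts per gene for each barcode, aligned to mm10 with Cell Ranger (3.1.0 in the submitters' processing notes, 3.0.1 in the file header), as matrices of called and of all barcodes. The authors also deposited estimated counts after subtraction of ambient RNA with SoupX, used here as an alternative only. Cell labels came from the authors' clustering in Seurat (3.1.5 in the processing notes) after removal of doublets. The paper annotated cell types separately after Harmony, Scanorama and BBKNN integration, and showed the Harmony labels. Which of these the deposited labels come from is not stated. No doublet caller was run on these matrices.

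Uncorrected counts of barcodes with a label and within the limits were summed by label and time point, leaving out no gene, and scaled to CPM (per 1000000 counts of the sum). Intervals at 95% are exact Poisson for CPM, Clopper-Pearson for shares and conditional binomial for ratios. With 1 library per group no test was made, and 2-fold was used to count genes among those with at least 20 summed counts and a mean of at least 20 CPM. A gene at 0 was set against a floor of 3 counts in the sum, and the limit of a share at 0 is 3 cells of the total. For detection, each cell was thinned to 2000 counts.

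The members of the label and the gene lists were chosen with earlier results of these data known. Genes were named as the 5 markers, the 3 members of a list with the highest mean CPM in Stem-labelled sums, members described for their role, and the 6 highest and 6 lowest ratios among genes with at least 100 counts in 1 group and detection in at least 20% of its cells, without mitochondrial, ribosomal protein, haemoglobin and myofibre genes. A few genes that this rule would name are not reported here. Positions came from GENCODE vM21, in which 27645 of 27998 gene identifiers were found, and promoters from a RefSeq table, in which a narrower form of the NF-kappaB motif was searched before the consensus.

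Scripts used Python 3.11.15, numpy 2.4.6, scipy 1.17.1, pandas 2.3.3 and matplotlib 3.10.9. They were tested on simulated counts in which 200 genes differed by 8-fold. In the simulation of day 7 against day 2, run on 5943 genes, 96.0% of the intervals held the true ratio. All 200 changed genes (100%) passed 2-fold. The simulated counts were Poisson draws with no spread between cells, so this checks the calculation and not the spread of these data. The alternatives were SoupX values, all labelled barcodes, median-of-ratios scaling, a mean over cells, a looser filter on low counts, removal of cells with leukocyte or endothelial counts, tenocytes in the denominator, at least 2000 transcripts, detection at 2 counts and ambient barcodes with 1 to 10 counts.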

Additional observations from a re-analysis of the deposited data

Results flagged for a closer look

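At day 2, barcodes that were called as cells and lay within the limits, but were not in the cell table, held the markers of the Stem label. Of 680 such barcodes, 30 had at least 3 counts of the 5 markers (4.41%; 3.0 to 6.24), with a median of 34602.5 counts per barcode. Pdgfra was detected in 25 of these, and 20 had Pdgfra and under 10 leukocyte marker counts. At day 7 the number was 4 of 477 (0.839%; 0.229 to 2.13). Among cells within the table, 43 of 47 and 70 of 78 Stem-labelled cells reached 3 counts, and so did 32 of 138 and 49 of 495 Pro-remodeling-labelled cells, so that the count alone does not tell the labels apart. These 30 barcodes carry no label, and their part in the day 2 share was not tested.

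Genes that lay on opposite sides of Pro-remodeling-labelled FAPs at the 2 time points were Eln, Fst and Ptx3. Elastin transcripts (Eln) had log2 ratios of -1.30 (-2.16 to -0.54) at day 2 and 1.12 (0.90 to 1.34) at day 7. Fst, which encodes the activin and myostatin antagonist follistatin, had log2 ratios of -1.56 (-1.79 to -1.33) and 1.25 (0.93 to 1.56). Ptx3, a soluble pattern recognition protein, had log2 ratios of -1.82 (-1.95 to -1.70) and 1.44 (1.07 to 1.80). Fst was 137 CPM in Stem-labelled FAPs at day 2 and 173 CPM at day 7, against 403 and 72.8 CPM in Pro-remodeling-labelled FAPs. Ptx3 was 452 and 137 CPM in Stem-labelled FAPs, against 1596 and 50.4 CPM. The difference between the time points was not tested, since there was 1 library at each.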

How the results depend on the processing

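Of 76 summary values recomputed under the alternatives, 59 stayed close, which means within 1.5 times for a number of genes and within the counting interval for a share or level. With the looser filter (at least 5 summed counts and no CPM minimum), which lets in many genes of few counts, 2576 genes were at least 2-fold higher and 1812 lower at day 7 than at day 2 (58.7% higher of those past 2-fold, in place of 44.8%), 2660 higher and 864 lower against Pro-remodeling at day 7, 1149 and 746 against Adipogenic at day 7, 1090 and 658 against Pro-remodeling at day 2, and 569 and 1487 against Adipogenic at day 2. Without cells holding 3 or more leukocyte or endothelial counts, which left 15 and 54 Stem-labelled cells, 424 genes were lower against Adipogenic at day 7, 322 were higher and 363 lower against Pro-remodeling at day 2, the day 2 share was 16.5%, and the difference in share between the days was -6.93 points (-16.4 to 0.544). With a mean over cells, 559 genes were higher against Adipogenic at day 2, so that 61.3% of the genes past 2-fold were higher against 48.0% in the summed counts. At 2 counts per cell the 5 markers were detected in 31.9% of cells at day 2 and 71.6% at day 7, and barcodes with 1 to 10 counts gave an ambient level of 54.2 CPM at day 7. With median-of-ratios scaling, 1190 genes were higher and 1105 lower at day 7 than at day 2.

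Of 927 gene ratios, 4 that were past 2-fold turned sign, 1 of them in 2 alternatives. Without the cells that held leukocyte or endothelial counts, 381 other ratios left their counting interval or, for genes at 0 with no finite interval, changed at all. This held for 196 as a mean over cells, 46 with SoupX values, 43 with median-of-ratios scaling and 13 with all labelled barcodes. Without the cells above, Cd74 was at 1.48 (log2) against Pro-remodeling at day 2, in place of -2.10. Against Adipogenic at day 2, Cthrc1 was at -0.064 without those cells and at -0.078 as a mean over cells, in place of 1.24, and Il6 was at 0.000626 and Zfp36 at 0.14 without those cells, in place of -1.60 and -1.01. The cause was not tested.

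No paired analysis was possible, since each time point had 1 library of 1 mouse and nothing pairs the time points. The limits are 1 library and 1 mouse per time point, day, animal and age that cannot be told apart, 47 and 78 cells, 30 Adipogenic-labelled cells at day 2, and shallower cells at day 7, where 1 count was worth 1.63 CPM of the sum.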

Other observations

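Cells that held more than 1 of the genes named above are given as values. Pi16 and Dpp4 were both detected, without thinning, in 16 of 47 Stem-labelled cells at day 2 and in 55 of 78 at day 7. Wnt2 was detected in 18 of 47 and 19 of 78 cells, and together with Duox1 in 9 and 6. Sema3c and Pcolce2 were found together in 39 of 47 and 64 of 78 cells. At day 2, Dpp4 was higher in dendritic cells (88.5 CPM) than in Stem-labelled FAPs (41.0 CPM), and Pi16 in neutrophils (69.8 CPM) was near the level in Stem-labelled FAPs (89.8 CPM).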
